A study of Mus musculus with 4 samples.

Results

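Immediate early genes were examined in tumors of autophagy-defective mouse cells that expressed p62-EGFP or EGFP. The 10 genes were Egr1, Egr2, Nr4a1, Klf4, Klf6, Zfp36, Dusp1, Btg2, Ier2 and Ier3, and every probe set annotated to exactly 1 of these symbols was taken. This gave 15 probe sets of 10 genes, among 22626 probe sets without controls and 12393 genes named by 1 symbol. RNA came from 2 tumors whose cells carried a fusion of EGFP, a green fluorescent protein, to the autophagy receptor p62 (gene Sqstm1), and from 2 tumors whose cells carried EGFP alone. All 4 tumors arose from immortalized baby mouse kidney epithelial (iBMK) cells that lack both copies of Atg5, a gene needed to form autophagosomes, and that express the survival protein Bcl-2, so autophagy loss and Bcl-2 were common to both groups. The cells were injected under the skin of NCR Nu/Nu mice, which lack a thymus but keep macrophages, NK cells and mast cells, and no treatment was given. The samples were bulk tissue, so fewer cells of a type and less RNA per cell cannot be told apart in any value below. The labels do not give the age of the mice, the promoter of the transgenes, the time between excision and lysis, whether a line was a clone or whether each tumor grew in its own mouse. P-values therefore measure only the spread between these 4 tumors, which may be partly technical.

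Immediate early genes are transcribed within minutes of a stimulus, without new protein synthesis, because the factors that switch them on are already present in the cell. Growth factors, stress and tissue handling act through ERK, JNK and p38 kinases on serum response factor (SRF) with its ETS partners, which bind CArG boxes, and on CREB, which binds cyclic AMP response elements (CREs). Many of the products are transcription factors that switch on later genes, and others shut the response off by removing phosphate from kinases or by destroying short-lived mRNAs. The transcripts themselves decay quickly, so a response is brief unless the stimulus lasts.

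RefSeq promoter sequences (GRCm38.p6) were matched by symbol for 8 of the 10 genes, in 12 windows, since Egr2 had several annotated starts; Egr1 and Ier2 were not matched. The 250 bases before each start are shown for 4 genes. Of these, 3 had lower signals in the p62-EGFP pair, and Btg2 was the gene whose groups overlapped. CArG boxes, CREs and sites of the EGR proteins can be read in them. Only exact matches were sought, so near matches are not marked. The windows are chr7:28379229-28379478 on the minus strand for Zfp36, chr17:26508473-26508722 on the minus strand for Dusp1, chr15:101266596-101266845 on the plus strand for Nr4a1 and chr1:134079156-134079405 on the minus strand for Btg2. Sequences run 5′ to 3′ toward the start, and capitals mark matches to a CArG box, to the EGR protein site GCGNGGGCG or to the CRE TGACGTCA on either strand.
Zfp36: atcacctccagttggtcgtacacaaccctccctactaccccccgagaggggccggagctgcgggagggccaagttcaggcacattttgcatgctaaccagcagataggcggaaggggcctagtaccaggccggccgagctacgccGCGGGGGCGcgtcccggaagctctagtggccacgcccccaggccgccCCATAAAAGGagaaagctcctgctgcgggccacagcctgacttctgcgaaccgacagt
Dusp1: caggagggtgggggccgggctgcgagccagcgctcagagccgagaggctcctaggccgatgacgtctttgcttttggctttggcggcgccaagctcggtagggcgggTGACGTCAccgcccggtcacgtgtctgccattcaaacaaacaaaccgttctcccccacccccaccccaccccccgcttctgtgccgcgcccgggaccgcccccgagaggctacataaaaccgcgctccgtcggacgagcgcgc
Nr4a1: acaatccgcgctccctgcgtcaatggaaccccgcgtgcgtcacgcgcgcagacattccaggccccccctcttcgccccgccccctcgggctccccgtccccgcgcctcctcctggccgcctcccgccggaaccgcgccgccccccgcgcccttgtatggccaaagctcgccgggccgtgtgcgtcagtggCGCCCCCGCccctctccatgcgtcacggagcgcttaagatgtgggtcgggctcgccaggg
Btg2: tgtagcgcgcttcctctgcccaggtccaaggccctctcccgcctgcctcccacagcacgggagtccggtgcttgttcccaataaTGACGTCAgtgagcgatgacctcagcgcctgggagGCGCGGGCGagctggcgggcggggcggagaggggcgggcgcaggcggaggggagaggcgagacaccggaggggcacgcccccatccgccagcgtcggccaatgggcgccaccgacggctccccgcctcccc
In the Zfp36 window the CArG box CCATAAAAGG began 58 bases before the start, and an EGR site began 105 bases before it. The Dusp1 window held a CRE from 143 bases before the start. The Nr4a1 window held an EGR site on the opposite strand from 60 bases before the start. Btg2 held a CRE from 166 and an EGR site from 131 bases before its start.

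Over the 8 matched genes, a CArG box was found in 2 (Egr2 and Zfp36), an EGR site in 4 (Btg2, Klf4, Nr4a1 and Zfp36) and a CRE in 2 (Btg2 and Dusp1). The CArG box CCATATATGG of Egr2 lay in 3 overlapping windows, 72, 73 and 133 bases before their starts, and a further Egr2 start had CCTTTTTTGG 72 bases before it. Klf4 held 2 EGR sites, and the Klf6 and Ier3 windows held none of these letters. Among all 32851 RefSeq windows of the same length, 1.47% held a CArG box, 4.7% an EGR site and 1.55% a CRE. Counted by gene, as for the 8, the shares were 1.62%, 5.33% and 1.77% of 27025 genes. The letters TATAAA, sought on the printed strand only, were in 0 of the 12 windows and in 7.59% of all windows. No match overlapped a match of another motif. A match describes these letters only, and no binding was measured.

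**Figure D1:**
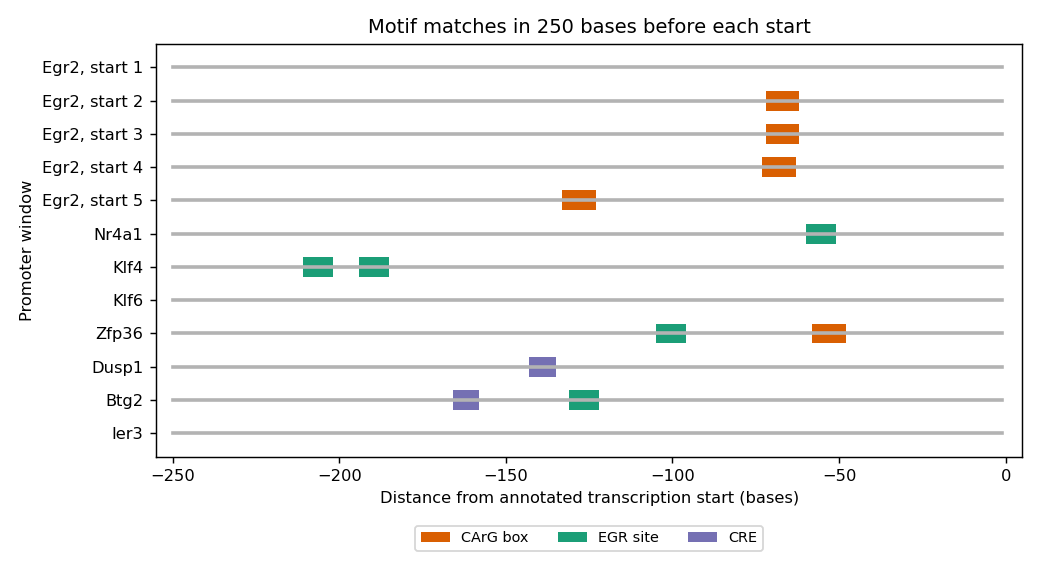
Matches to the CArG box (orange), the EGR site (green) and the CRE (purple) in the 250 bases before each annotated start, on an axis of distance from the start in bases. Each grey line is 1 of 12 RefSeq windows of 8 genes; the matches of Zfp36 lie 105 and 58 bases before its start and that of Dusp1 143 bases before it.

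Signals are MAS5 values on a linear scale that the authors had scaled between arrays; the mean signal after trimming 2% at each end was 150.04 on every array, and medians ran from 57.7 to 60.9. Across tested probe sets, r was 0.98 within the p62-EGFP pair and 0.901 within the EGFP pair; probe sets are no replicates, so these are descriptions. Of the markers set for the labelled epithelium, Krt18 read 545 and 627 in p62-EGFP tumors and 729.6 and 254 in EGFP tumors, and Epcam 361 and 660.3 against 351 and 109. The 8 epithelial markers summed to 1471 and 2162 in p62-EGFP tumors and 1489.8 and 701 in EGFP tumors, lowest in EGFP tumor 2. Of the 8, 3 lay above both EGFP tumors in the p62-EGFP pair and 0 below, where 26.5% and 18.2% of all probe sets did. None of the 5 tested passed. At an unadjusted p below 0.05, 1 was higher, where 8.74% of tested probe sets were (limma). Krt19 was among the 3, at 333 and 341 against 93.6 and 156. Cldn7 read 12.7 and 23.4 against 0.7 and 0.5, and Krt7 was at 5.3 to 8.2 in all 4 tumors. Markers of kidney lineage, Pax8 and Cdh16, did not exceed 11.2 in any tumor. Skeletal muscle markers summed to 4120 and 41.1 in the p62-EGFP tumors and 31.7 and 505 in the EGFP tumors, so p62-EGFP tumor 1 stood apart in muscle. Macrophage markers summed to 1592 and 1681 in p62-EGFP tumors against 855 and 6723 in EGFP tumors, and EGFP tumor 2 stood apart in these. Its sum of NK and T cell markers was 2107, where the other 3 tumors had 70.2 to 71.6. Differences between groups are given on the log2(signal + 16) scale as p62-EGFP minus EGFP, which understates the change of dim probe sets. Probe sets at or above the 40th percentile of mean level were tested with limma, and an adjusted p is Benjamini-Hochberg adjusted over all 13576 of them, with a threshold of 0.05.

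The p62-EGFP pair lay wholly below the EGFP pair for 9 of the 10 genes, by the probe set of highest mean, and wholly above it for 0; the groups overlapped for Btg2. Of the 7847 tested genes, 22.0% lay below in this way and 26.4% above. The 10 genes, and the lists below, were chosen with earlier results of these data known. The 10 genes also belong to 1 response read in the same tumors. Counts of them are therefore descriptions, not separate observations. Over all 15 probe sets, 12 lay below, 0 above and 3 overlapped, where 18.2% of all 22626 probe sets lay below and 26.5% above. The median log2 difference was -1.26 over the 10 genes and 0.01 over all tested genes. No probe set of these genes passed the test: 14 of the 15 were bright enough to be tested, and their adjusted p-values ran from 0.161 to 0.86 (limma), where 0.0884% of tested probe sets passed. At an unadjusted p below 0.05, 6 were lower and 0 higher, where 5.77% of tested probe sets were lower and 8.74% higher (limma). An exact permutation test of 2 against 2 tumors cannot go below p = 0.333.

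**Figure D2:**
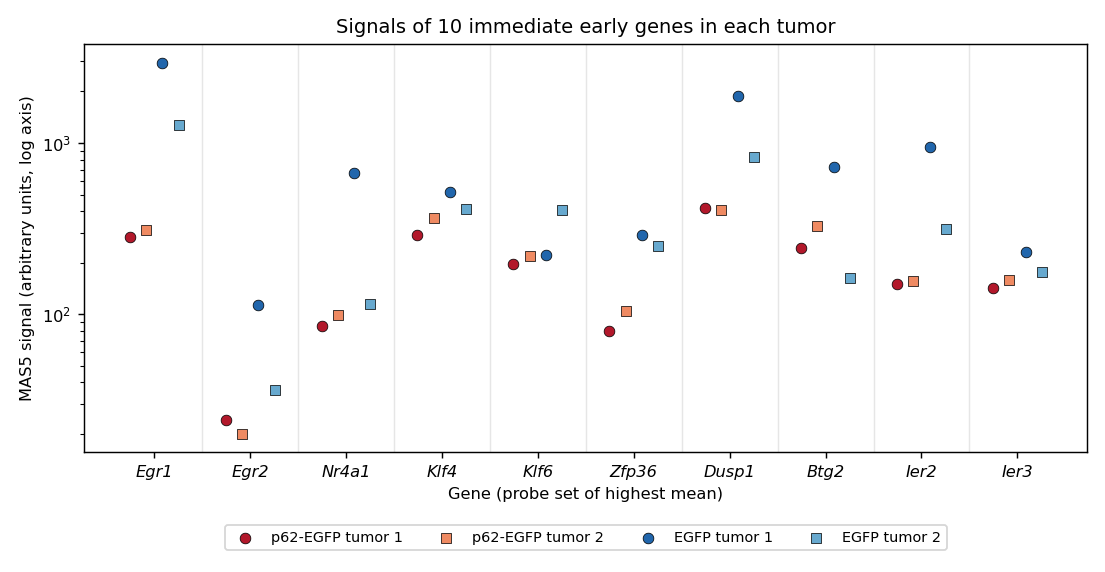
MAS5 signal (log axis) of the 10 genes in each of the 4 tumors, by the probe set of highest mean; red points are p62-EGFP tumors and blue points EGFP tumors, with circles for tumor 1 and squares for tumor 2. Both red points lie below both blue points for 9 genes, and for Btg2 they lie between the EGFP tumors; levels are not comparable between genes.

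Egr1 is a zinc finger transcription factor that binds GC-rich promoters and switches on growth and matrix genes. Its signal was 283 and 309.7 in p62-EGFP tumors 1 and 2, against 2948 and 1278 in EGFP tumors 1 and 2. Both EGFP tumors lay far above both p62-EGFP tumors, which were nearly equal to each other. The p62-EGFP mean was 296 ± 18.7 and the EGFP mean 2113 ± 1180 (SD, n = 2 each), so the p62-EGFP mean was 14.0% of the EGFP mean. The log2 difference was -2.65 (SE 0.39), and it did not pass the test (limma adjusted p = 0.168). Limma's array weights count the more variable arrays less, and with 2 tumors a group they can only count a whole pair less. With these weights Egr1 was the 1 probe set of these genes to pass as lower (limma adjusted p = 0.0462) and 0 passed as higher. Of tested probe sets, 0.0737% and 0.0663% passed in those directions. The p62-EGFP tumors were lower than EGFP tumor 1 by more than they were lower than EGFP tumor 2: the differences were -3.31 and -3.19 log2 units against EGFP tumor 1, and -2.11 and -1.99 against EGFP tumor 2.

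Egr2, a relative of Egr1 best known for its part in hindbrain and Schwann cell development, was dim. Its brighter probe set read 24.3 and 20.1 in p62-EGFP tumors and 113 and 36.0 in EGFP tumors. The groups did not overlap, but EGFP tumor 2 lay nearer to the p62-EGFP tumors than to EGFP tumor 1 on this scale. The log2 difference was -1.10 (SE 0.44, limma adjusted p = 0.348). The dimmer probe set, which was not tested, read 11.0 and 10.0 in p62-EGFP tumors and 93.5 and 21.2 in EGFP tumors, in the same order.

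Nr4a1 encodes Nur77, an orphan nuclear receptor induced by growth factors and by calcium. It read 84.9 and 98.4 in p62-EGFP tumors, against 665 and 115 in EGFP tumors. Only EGFP tumor 1 was high, and EGFP tumor 2 exceeded p62-EGFP tumor 2 by 0.20 log2 units. The log2 difference between groups was -1.48 (SE 0.75), with a limma adjusted p of 0.416. The zinc finger factor Klf4, a regulator of epithelial differentiation, read 292 and 365 in p62-EGFP tumors and 519 and 409 in EGFP tumors by its brighter probe set. Its dimmer probe set read 92.5 and 92.3 against 220.1 and 138. Both probe sets kept the groups apart, with log2 differences of -0.48 (SE 0.20) and -0.82 (SE 0.24) and limma adjusted p-values of 0.35 and 0.265.

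Klf6, a ubiquitous member of the same family, had its highest signal in EGFP tumor 2 on all 3 of its probe sets. The brightest read 196 and 219 in p62-EGFP tumors and 223 and 405 in EGFP tumors, so EGFP tumor 1 was barely above the p62-EGFP tumors, by 0.02 log2 units at the nearest. The second read 130.8 and 130.7 against 187 and 347, and the third 63.3 and 79.3 against 71.6 and 115, where the groups overlapped. The log2 differences were -0.51, -0.89 and -0.30 (limma adjusted p = 0.467, 0.297 and 0.607). EGFP tumor 2, where Klf6 was highest, also had the highest sum of macrophage markers, 6723, against 855 in EGFP tumor 1. It had the highest fibroblast sum as well, 3406, against 974 in EGFP tumor 1. The p62-EGFP tumors had macrophage sums of 1592 and 1681 and fibroblast sums of 2057 and 2831. All of these were above the sums of EGFP tumor 1. The part of other cell types in the Klf6 signal was not tested.

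Zfp36 and Dusp1 encode products that end the response. Zfp36 (tristetraprolin) binds AU-rich elements and speeds the decay of cytokine and early gene mRNAs. It read 79.4 and 105 in p62-EGFP tumors, against 291 and 249 in EGFP tumors. Here the EGFP tumors were close to each other, and both were more than 1.13 log2 units above both p62-EGFP tumors. The p62-EGFP mean of 92.2 ± 18.2 was 34.1% of the EGFP mean of 270.2 ± 29.5 (SD, n = 2 each). The log2 difference was -1.41 (SE 0.20), and its adjusted p of 0.161 (limma) was the smallest among the 10 genes. Dusp1, a phosphatase that inactivates p38, JNK and ERK, read 418 and 407 in p62-EGFP tumors, against 1885 and 831 in EGFP tumors. EGFP tumor 1 was highest, and EGFP tumor 2 lay 0.97 log2 units above the nearer p62-EGFP tumor. The log2 difference was -1.57 (SE 0.38, limma adjusted p = 0.221).

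Btg2, an antiproliferative p53 target that recruits mRNA deadenylases, was the exception. It read 243 and 328 in p62-EGFP tumors, against 723 and 162 in EGFP tumors. The p62-EGFP tumors lay between the EGFP tumors, and the second probe set gave the same order, with 112 and 160.3 against 299 and 89.6. The log2 differences were -0.28 (SE 0.66) and -0.28 (SE 0.53), with limma adjusted p-values of 0.86 and 0.826. Against EGFP tumor 2 alone the direction turned, to 0.74 and 0.51 log2 units. Against EGFP tumor 1 alone the differences were -1.31 and -1.07 log2 units.

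Ier2, a small nuclear protein of the immediate early response, read 150.2 and 157 in p62-EGFP tumors and 948 and 314 in EGFP tumors. Both EGFP tumors were higher, by 0.93 log2 units or more. The p62-EGFP mean was 154 ± 4.88 and the EGFP mean 631 ± 448 (SD, n = 2 each), with a log2 difference of -1.73 (SE 0.50, limma adjusted p = 0.254). Ier3, a stress-induced regulator of ERK signalling and cell survival and also a target of NF-kB, differed less. It read 142 and 159 in p62-EGFP tumors against 232 and 175 in EGFP tumors. The groups did not overlap, the nearest tumors were 0.13 log2 units apart, and the log2 difference was -0.39 (SE 0.20, limma adjusted p = 0.418).

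**Figure D3:**
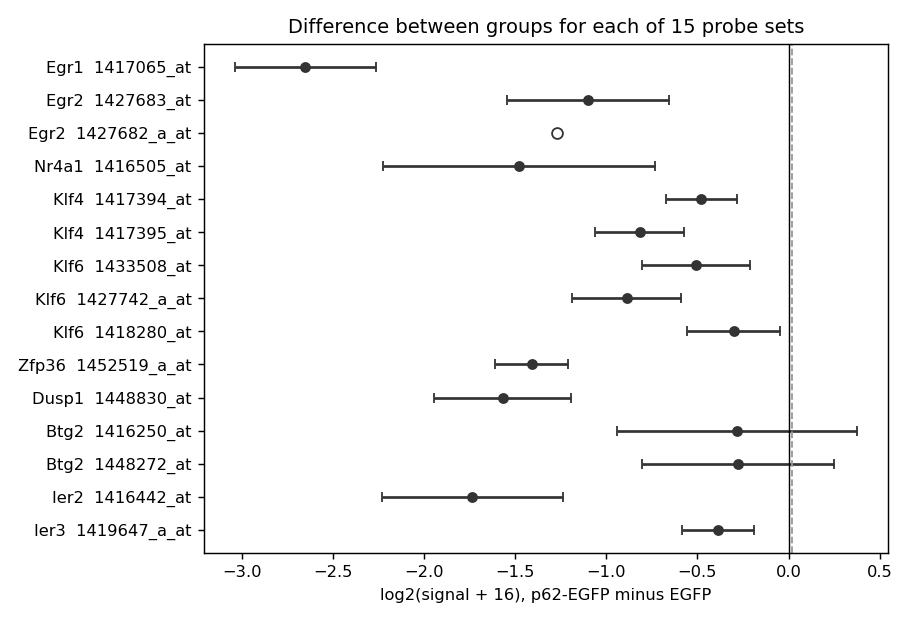
Difference p62-EGFP minus EGFP on the log2(signal + 16) scale for each of the 15 probe sets, with the standard error from limma; the open point is the Egr2 probe set too dim to be tested, and the dashed line is the median of all tested probe sets, 0.02. Egr1 lies lowest, at -2.65, and every point lies below 0.

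The EGFP tumors lay further apart than the p62-EGFP tumors for 9 of the 10 genes. Zfp36 was the exception, with tumor 1 minus tumor 2 at -0.34 log2 units in the p62-EGFP pair and 0.21 in the EGFP pair. The absolute difference between the EGFP tumors had a median of 1.18 log2 units over the 10 genes, against 0.27 over all 7847 tested genes. Between the p62-EGFP tumors the median was 0.15 over the 10 genes and 0.14 over all tested genes. By these medians the EGFP pair was also the wider one over all tested genes. The share of tested genes with a wider EGFP pair was not counted. EGFP tumor 1 exceeded EGFP tumor 2 by 1 log2 unit or more for 6 of the 10, namely Egr1, Egr2, Nr4a1, Dusp1, Btg2 and Ier2, where 1.69% of tested genes did. Klf6 ran the other way, with EGFP tumor 2 higher by 0.82 log2 units, and 0 of the 10 reached 1 log2 unit in that direction, where 4.97% of tested genes did. None of the 10 differed by 1 log2 unit between the p62-EGFP tumors, where 0.51% of tested genes did, and the widest gap there was 0.41 log2 units, for Btg2. With 2 tumors a group, no test of these spreads was made. These counts too come from genes chosen with earlier results of these data known.

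**Figure D4:**
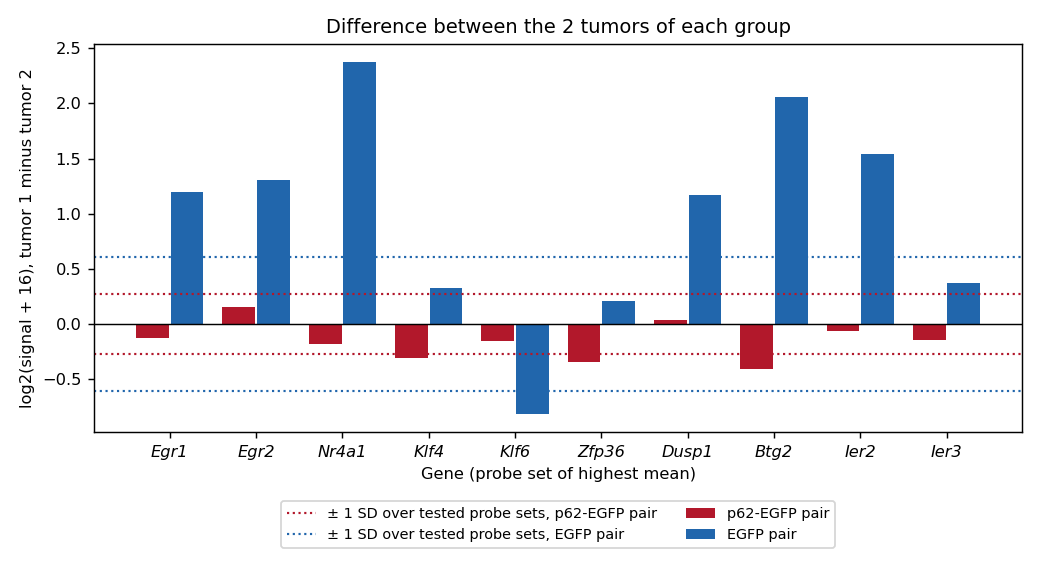
Difference between tumor 1 and tumor 2 of each group on the log2(signal + 16) scale, with p62-EGFP pairs in red and EGFP pairs in blue; dotted lines are ± 1 SD of the same difference over all tested probe sets, 0.27 for p62-EGFP and 0.60 for EGFP. The EGFP bars of 6 genes exceed 1, and Klf6 is the one EGFP bar below 0.

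Against EGFP tumor 1 alone, both p62-EGFP tumors were lower for 10 of 10 genes, where 42.9% of tested genes were. Against EGFP tumor 2 alone they were lower for 9 of 10, where 35.4% of tested genes were. The median over the 10 genes was -1.68 and -1.59 log2 units for p62-EGFP tumors 1 and 2 against EGFP tumor 1. Against EGFP tumor 2 it was -0.72 and -0.68. A fit without an EGFP tumor takes its spread from the p62-EGFP pair alone and assumes that the remaining EGFP tumor varies as little. Without EGFP tumor 1, 6 of the 13 probe sets bright enough in the remaining tumors passed as lower (1 each of Egr1, Ier2, Zfp36 and Dusp1 and 2 of Klf6) and 1 as higher (Btg2), where 9.74% and 11.1% of tested probe sets passed in those directions (limma). Without EGFP tumor 2, 10 passed as lower and 0 as higher, where 4.38% and 5.15% did. Egr1, Ier2, Zfp36 and Dusp1 passed as lower in both fits. Without p62-EGFP tumor 1 or without p62-EGFP tumor 2, 0 of these probe sets passed, and neither did any of all 13576 tested (limma). At an unadjusted p below 0.05, 3 of these probe sets passed in each of the 2 fits, where 3.79% and 3.88% of all tested probe sets did (limma).

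Host cell markers were read beside these genes, and none passed the test in any list (limma; at an unadjusted p below 0.05, 3 mast cell, 3 endothelial and 1 pericyte or smooth muscle marker were lower, and 2 of the last list higher). Counts of markers lying wholly below or above the EGFP pair are to be read against the 18.2% and 26.5% of all probe sets that did. For counts at an unadjusted p below 0.05, the shares of tested probe sets were 5.77% lower and 8.74% higher (limma). Mast cell markers summed to 172 and 120.5 in p62-EGFP tumors and 617 and 474 in EGFP tumors, with 4 of 6 below and 0 above. The protease genes Cpa3 and Cma1 stood at 10.3 to 15.8 in p62-EGFP tumors and 70.5 to 125 in EGFP tumors (limma adjusted p = 0.0842 and 0.131). Kit overlapped, at 97.3 and 73.3 against 55.6 and 74.3, and so did Ms4a2, at 6.5 and 2.0 against 6.3 and 4.3. Endothelial markers summed to 187 and 242 in p62-EGFP tumors and 377 and 533 in EGFP tumors, with 7 of 8 below and 0 above. Of macrophage markers 0 of 9 separated the groups. Of pericyte and smooth muscle markers 3 of 7 lay below and 4 above. Of fibroblast markers 0 of 7 lay below and 1 above. Of NK and T cell markers 1 of 7 lay below and 0 above. The part of any of these cell types in the differences of the 9 genes was not tested. Of 4 erythroid markers listed, 3 were found under 1 symbol, and these did not exceed 21.0 in any tumor. Hbb-b1 was missing, so Hba-a1 was the only globin gene of the list that was read.

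Other immediate early genes outside the 10 were listed as 34 symbols, of which 31 were on the array. Of the 31, 11 lay wholly below the EGFP pair in the p62-EGFP pair and 3 wholly above, where 18.2% and 26.5% of all probe sets did, and the median log2 difference was -0.39. None of the 23 tested genes passed. At an unadjusted p below 0.05, 5 were lower and 0 higher, where 5.77% and 8.74% of tested probe sets were (limma). Fos, the AP-1 subunit, read 101 and 117 in p62-EGFP tumors and 2174 and 446 in EGFP tumors, and Junb, its partner, 71.9 and 87.0 against 394 and 257 (limma adjusted p = 0.219 and 0.161). EGFP tumor 1 was again the highest for both. Sgk1, a kinase induced by serum and glucocorticoid, read 123 and 139 against 248 and 410.2, with EGFP tumor 2 highest, and Errfi1, a feedback inhibitor of the EGF receptor, 221 and 249.6 against 390.5 and 391.1. Their limma adjusted p-values were 0.219 and 0.218. The 3 genes above both EGFP tumors, Fosl1, Fosl2 and Egr3, were named after their values were seen and were too dim to be tested. Egr3 read 36.7 and 20.1 in p62-EGFP tumors and 14.4 and 9.7 in EGFP tumors.

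Upstream kinases and transcription factors were listed as 22 symbols, and the 14 on the array were all tested. The p62-EGFP pair lay wholly below for 7 and above for 1 (22.0% and 26.4% of tested genes), and the median log2 difference was -0.20. None passed. At an unadjusted p below 0.05, 3 were lower and 0 higher, where 5.77% and 8.74% of tested probe sets were (limma). Srf itself, the factor that binds CArG boxes, read 119 and 97.4 in p62-EGFP tumors against 199 and 144 in EGFP tumors (log2 difference -0.59, limma adjusted p = 0.325). EGFP tumor 1 was the highest, as for Egr1. Elk3, an ETS partner of SRF, read 73.8 and 89.8 against 124 and 253, and Crem, a CREB relative, 74.3 and 73.2 against 115 and 158 (limma adjusted p = 0.299 and 0.242). Map2k1, the ERK kinase MEK1, read 227 and 236 against 282 and 378 (limma adjusted p = 0.349). These 3 were highest in EGFP tumor 2.

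Feedback genes of ERK signalling outside the 10 showed 7 of 13 below and 1 above (18.2% and 26.5% of all probe sets), with a median log2 difference of -0.26. Some of these lay barely apart or were very dim, as seen after the values were known. Spry1 was below by 0.015 log2 units, and Spry4 read 1.2 and 1.4 in p62-EGFP tumors against 4.2 and 3.8. Ereg, the gene above, read 4.2 and 6.2 against 2.0 and 3.9. None of the 9 tested passed. At an unadjusted p below 0.05, 0 were lower and 0 higher, where 5.77% and 8.74% of tested probe sets were (limma). Dusp6, a phosphatase specific to ERK, read 43.2 and 48.9 in p62-EGFP tumors and 60.6 and 148 in EGFP tumors. Dusp7, a related ERK phosphatase, read 32.0 and 20.9 against 40.2 and 47.1, and Phlda1 46.4 and 52.9 against 93.8 and 65.8. Hbegf, an EGF receptor ligand, read 54.6 and 55.3 against 129 and 58.9, so EGFP tumor 2 lay close to the p62-EGFP tumors. The limma adjusted p-values of these 4 ran from 0.351 to 0.485.

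Targets and corepressors of EGR factors lay wholly below in the p62-EGFP pair for 4 of 10 genes and above for 1, where 18.2% and 26.5% of all probe sets did, with a median log2 difference of -0.51. None of the 9 tested genes passed, and 3 were lower at an unadjusted p below 0.05, where 5.77% of tested probe sets were (limma). Nab2, a corepressor that Egr1 induces and that in turn restrains it, read 50.6 and 58.5 in p62-EGFP tumors and 111 and 84.7 in EGFP tumors. Its relative Nab1 read 238 and 257 against 282 and 488. Tgfb1, a cytokine that restrains immune cells and drives matrix synthesis, read 119 and 121 against 266 and 243, and Pdgfb, a growth factor for pericytes, 19.0 and 30.0 against 50.1 and 46.2. For Tgfb1 the tumors of each group were close to each other. The limma adjusted p-values were 0.263, 0.409, 0.179 and 0.297 for Nab2, Nab1, Tgfb1 and Pdgfb.

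The paralogs Zfp36l1 and Zfp36l2, which also bind AU-rich mRNAs, also lay wholly below in the p62-EGFP pair. Zfp36l2 read 452 and 584 in p62-EGFP tumors against 1038 and 1079.7 in EGFP tumors, and Zfp36l1 349 and 363 against 521 and 545. The EGFP tumors were close to each other for both paralogs, and neither passed (limma adjusted p = 0.179 and 0.226). In the list of these paralogs with known AU-rich target transcripts, 5 of 13 lay below and 1 above (18.2% and 26.5% of all probe sets), with a median log2 difference of -0.25. None of 6 tested genes passed, and 3 were lower at an unadjusted p below 0.05, where 5.77% of tested probe sets were (limma). These 3 were Zfp36l1, Zfp36l2 and Csf1. The cytokine gene Csf1 read 38.6 and 44.1 against 66.8 and 147, and the chemokine gene Ccl2, which overlapped, 50.2 and 72.4 against 36.7 and 173 (limma adjusted p = 0.3 and 0.787). Among all listed paralogs of the 10 genes, 8 of 19 lay below and 2 above (18.2% and 26.5% of all probe sets), with a median of -0.29. None of 16 tested genes passed. At an unadjusted p below 0.05, 2 were lower, again Zfp36l1 and Zfp36l2, where 5.77% of tested probe sets were (limma). Several genes stand in more than 1 list, so the counts of the lists overlap. Tob1, an antiproliferative relative of Btg2, read 558 and 824 in p62-EGFP tumors against 535 and 296 in EGFP tumors (limma adjusted p = 0.37). Tob2 read 399 and 397 against 558 and 471 (limma adjusted p = 0.368).

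**Figure D5:**
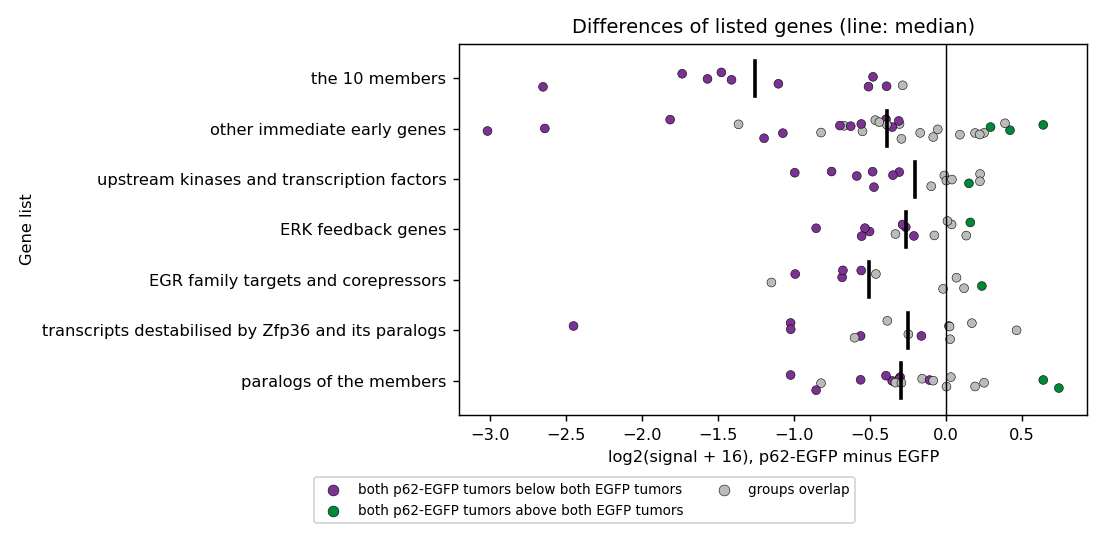
Difference p62-EGFP minus EGFP on the log2(signal + 16) scale for the 10 genes and for each listed gene on the array; purple points lie below both EGFP tumors in both p62-EGFP tumors, green points above, grey points overlap, and black lines are medians. The medians run from -1.26 for the 10 genes to -0.20 for upstream kinases and transcription factors.

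The genes whose pattern over the 4 tumors was most like that of Egr1 were sought by the Euclidean distance between centred log2 values, over 12532 tested probe sets of other named genes. The nearest were a probe set of Ighm, the mu heavy chain, at 0.42 log2 units, and Tpsab1, a mast cell protease, at 0.47. Igkv8-30, an immunoglobulin light chain variable gene, followed at 0.59, a second Ighm probe set at 0.69 and Fos at 0.83. Ighm read 6.0 and 11.0 in p62-EGFP tumors and 176 and 108 in EGFP tumors by the nearest probe set, and Tpsab1 32.1 and 20.4 against 301 and 159.5. Immunoglobulin probe sets can bind related transcripts. Of the other 9 genes, by the probe set of highest mean, Ier2 ranked 8, Dusp1 9, Zfp36 12, Nr4a1 13 and Egr2 20. Klf4, Ier3, Btg2 and Klf6 ranked 537, 820, 1559 and 2745 in the same way. The probe sets of Klf4, Klf6 and Btg2 nearest to Egr1 were dimmer ones, at ranks 70, 590 and 1172. With 4 tumors a likeness of this kind is a description of these arrays.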

How the data were processed

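RNA of 4 tumors was hybridized as biotin-labelled cRNA to 1 Affymetrix Mouse Genome 430A 2.0 array each, per the labels' protocols. The authors deposited 1-colour intensities on a linear scale, made with MAS5 per the submitters' processing notes, whose version and settings are not given in the sources used here. They were already scaled and were used as deposited. Of 22690 probe sets, 64 controls were left out. Genes were named through the platform annotation supplied with the data: 20380 probe sets had 1 symbol, 691 several and 1555 none, and only the first were named.

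Signals were transformed as log2(signal + 16). Probe sets whose 4-array mean reached the 40th percentile (5.60 on this scale) were tested. The groups were compared by limma's lmFit and trended eBayes (limma 3.58.1, R 4.3.3); p-values are two-sided, Benjamini-Hochberg adjusted and called below 0.05. The Genes@Work selection named in the design text was not available. The fit was tested on simulated arrays. A gene was represented by its probe set of highest mean. The 10 genes, the gene lists and the markers were chosen with earlier results of these data known. Genes named from a list are up to 4 tested ones with the smallest unadjusted p, and those most like Egr1 are the nearest 5 probe sets. Promoters were searched and figures drawn with Python 3.11.15, numpy 2.4.6, pandas 2.3.3 and matplotlib 3.10.9. Only 4 arrays, with 2 residual degrees of freedom, limit the precision. Alternatives covered scaling, pseudocount, filter, variance model, array weights, the tumor number as a block, gene means over probe sets and leaving out each tumor.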

Additional observations from a re-analysis of the deposited data

How the results depend on the processing

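With 4 arrays the count of probe sets that passed depends on how the spread is estimated, and dim probe sets such as those of Egr2 are limited by the background of the arrays. The count over all probe sets, 12, was 6 with no filter, 7 with the 60th percentile filter, 19 with array weights, 37 with the tumor number as a replicate block and 1 with the probe sets of a gene averaged. Leaving out 1 tumor gave counts from 0 to 2835. Of the 10 genes' probe sets, 1 (Egr1) passed with array weights and 1 (Egr1, limma adjusted p = 0.0403) with the replicate block, against 0 otherwise in the fits that kept all tumors, and from 0 to 10 when 1 tumor was left out. The tumor numbers were not shown to pair the tumors: the correlation of the replicate deviations between groups was 0.082. The median over the 10 genes ran from -1.63 to -0.68 when 1 tumor was left out and from -1.52 (pseudocount 1) to -0.86 (pseudocount 64) in the other alternatives. Of 205 values of single probe sets or genes over 14 alternatives, 188 were tested both there and in the reported fit: 168 kept their direction and side of the threshold, 18 passed the threshold in addition and 2 reversed. The other 17 were too dim to be tested in one or both fits and kept their direction only. The 2 that reversed were the Btg2 probe sets without EGFP tumor 1, at 0.74 and 0.51. When 1 tumor was left out, the Btg2 probe sets ran from -1.31 to 0.74 and from -1.07 to 0.51. The cause was not tested.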
